A study of Mus musculus with 40 samples.

Results

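The collagen cross-linking and hydroxylation enzymes are 10 genes taken by name: 5 lysyl oxidases (Lox, Loxl1, Loxl2, Loxl3 and Loxl4), 3 lysyl hydroxylases (Plod1, Plod2 and Plod3) and the prolyl 4-hydroxylase α subunits P4ha1 and P4ha2. They are 10 of the 55414 Ensembl gene identifiers in the count table. All 10 were among the 25210 genes that had at least 10 counts in total over 40 libraries and were tested. In single libraries they held from 677 counts (Loxl4) to 635383 counts (Lox).

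Cardiac fibroblasts were isolated from hearts of adult TAK1fl/fl mice on a C57BL/6J background, in which loxP sites flank exon 2 of Map3k7, the gene for the kinase TAK1. At passage 1 they were transduced with an adenovirus that carries LacZ (control) or iCre (Cre recombinase), both under the CMV promoter, for 48 h and were left for a further 48 h. Serum-starved cells then received no ligand (CTRL), bFGF at 20 ng/ml, TGFβ at 10 ng/ml, IL-1β at 15 ng/ml or TNFα at 10 ng/ml for 24 h, and polyadenylated RNA was sequenced. This gave 10 groups of virus by ligand with 4 replicates each, which the study describes as male. All groups carried the floxed alleles and an adenovirus, so neither untransduced cells nor Cre without floxed alleles were among the libraries. Recombination depends on which cells the virus reached, and the medium used for growth before starvation also held bFGF.

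These enzymes modify fibrillar collagen chains before and after secretion. In the endoplasmic reticulum, prolyl 4-hydroxylases (an α subunit such as P4HA1 or P4HA2 joined to the β subunit P4HB) hydroxylate prolines, which lets the triple helix hold at body temperature, and lysyl hydroxylases hydroxylate lysines, PLOD2 mainly those of the telopeptides that lie outside the helix. After secretion, copper-dependent lysyl oxidases convert lysines and hydroxylysines to reactive aldehydes that join into cross-links between molecules, and LOX and LOXL1 also act on elastin. In the heart, cross-linked collagen resists degradation and stiffens the scar that fibroblasts lay down.

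The depth of a library, as reads assigned to genes, ran from 25360947 to 66160732 (median 36183962). Levels are given as CPM, counts per 1000000 after TMM scaling of the library size. For Map3k7, LacZ CTRL libraries had a mean of 153 ± 6.51 CPM and iCre CTRL libraries one of 127 ± 4.27 CPM (SD, n = 4), with a log2 fold change of −0.28 that did not pass the test (edgeR quasi-likelihood, adjusted p = 0.137), and with bFGF the value was −0.40 (adjusted p = 0.351). Under TGFβ (−0.67), IL-1β (−0.82) and TNFα (−0.71) Map3k7 was lower in iCre than in LacZ fibroblasts by the test, and reads from every exon of the recombined allele other than exon 2 are still counted. In a fit with a block for the replicate number, a term used because libraries with the same number resembled each other, it also passed in CTRL (adjusted p = 0.00393) and with bFGF (0.000409). The summed level of 9 fibroblast markers lay between 15260 and 69042 CPM in the 40 libraries and that of 4 endothelial markers between 0.814 and 13.5 CPM. Of the 2 cardiomyocyte markers tested, Actc1 had a median of 0 and Tnnt2 one of 6.54 CPM. Together they held between 14.6 and 110 CPM in the LacZ CTRL libraries. The 5 leukocyte markers summed to between 16.3 and 156 CPM, mostly from Lyz2, with Ptprc at no more than 2.08 CPM. The 4 pericyte markers summed to between 71.9 and 1920 CPM, mostly from Rgs5, with Cspg4 between 9.47 and 560 CPM, Myh11 at up to 16.1 CPM and Kcnj8 at up to 5.73 CPM. Replicate 2 stood apart for several of the enzymes, being the lowest or highest library by a wide gap in 9 of the 12 gene and group combinations where a single library did so. Of the 170 log2 fold changes of the enzymes, 26 that had missed the threshold passed it when replicate 2 was left out, and 3 that had passed it missed it.

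TGFβ had the most enzymes called in each virus, except that with the replicate block IL-1β had 10 in iCre and TGFβ 9. Adjusted p-values at or below 0.05 over all 25210 genes were called. In LacZ fibroblasts TGFβ raised all 10 enzyme genes, while 17.5% of all genes tested rose and 19.3% fell. IL-1β raised 8 (of all genes, 11.1% rose and 9.55% fell), with Loxl4 and Plod2 as the exceptions. TNFα raised Loxl4 and P4ha2 and lowered Plod2, against 10.9% of all genes higher and 10.4% lower, and bFGF raised Loxl3 and Plod1 and lowered Plod2, against 7.00% higher and 4.64% lower. The median log2 fold change of the 10 enzymes was 1.75 with TGFβ, where the median of all genes was −0.17. With IL-1β it was 0.94, where all genes had −0.10. These 4 comparisons share the CTRL libraries.

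In iCre fibroblasts, TGFβ raised 9 of the 10, Plod2 being the exception, against 18.6% of all genes higher and 18.8% lower. IL-1β raised 4, namely Loxl3, Plod1, P4ha1 and P4ha2 (all genes, 9.38% higher and 6.88% lower). TNFα raised Loxl3 and lowered Lox and Plod2 (all genes, 14.7% higher and 12.3% lower). Under bFGF Loxl3 rose and no other enzyme passed (all genes, 1.79% higher and 0.635% lower). With the replicate block the number of enzymes called went up to 6 for bFGF (27.3% of all genes called in either direction) and 7 for TNFα (35.5%) in LacZ fibroblasts. The additions were Lox (lower), Plod3 and P4ha1 (higher) for bFGF, and Loxl2, Loxl3, Plod3 and P4ha1 (all higher) for TNFα. In iCre fibroblasts it went up to 5 for bFGF (16.7%), 10 for IL-1β (33.8%) and 7 for TNFα (36.1%), with Lox and Plod2 (lower) and Plod3 and P4ha1 (higher) added for bFGF and Loxl4, Plod3, P4ha1 and P4ha2 (all higher) for TNFα. For IL-1β it added Lox, Loxl1, Loxl2, Loxl4 and Plod3 as higher and Plod2 as lower. With GC content corrected as well, the calls for Loxl2 and Loxl4 with IL-1β in iCre and for P4ha2 with TNFα in iCre were lost. That fit instead called Loxl1 and Loxl4 with bFGF in LacZ and Plod2 with TGFβ in iCre as higher, and Loxl2 and Plod1 with TNFα in iCre as lower.

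Compared directly and without the block, iCre and LacZ fibroblasts differed in 1 of these genes in CTRL and in 0 to 6 with a ligand. Loxl2 was lower in iCre CTRL, one of 12 genes that were lower (0.0476% of those tested, with 0.0278% higher). With bFGF no gene of the 25210 passed in edgeR (0% in each direction), whereas 2585 genes, Loxl2 and P4ha1 among them, had an unadjusted p under 0.05 and DESeq2 called 481 genes, among them Loxl2. Loxl2 and Plod2 were lower in iCre with TGFβ (all genes, 5.87% lower and 2.51% higher). With IL-1β, Lox, Loxl2, Plod1 and P4ha2 were lower (all genes, 8.98% lower and 7.14% higher). With TNFα, Lox, Loxl2, Plod2, P4ha1 and P4ha2 were lower and Loxl3 was higher (all genes, 12.6% lower and 14.8% higher). The replicate block raised the number called to 5 in CTRL (14.5% of all genes in either direction), 5 with bFGF (13.9%), 7 with TGFβ (20.8%) and 8 with IL-1β (29.5%). In CTRL it added Lox, P4ha1 and P4ha2 as lower in iCre and Loxl3 as higher, and with bFGF Lox, Loxl2, Plod3, P4ha1 and P4ha2, all lower. With TGFβ it added Lox as lower but Loxl3, Loxl4, Plod1 and P4ha2 as higher, and with IL-1β Loxl3, Plod2, Plod3 and P4ha1, all lower. For TGFβ the count came back to 2 when GC content was corrected as well.

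**Figure D1:**
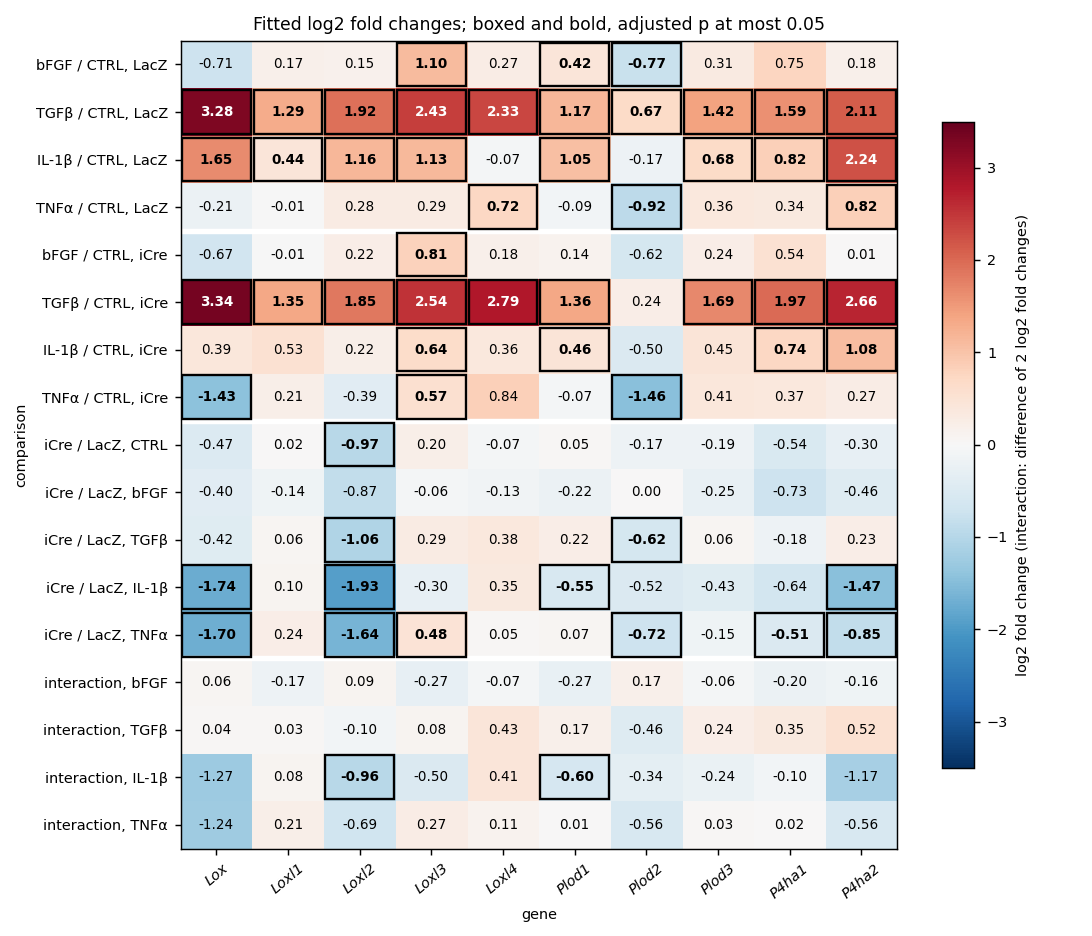
Heat map of the fitted log2 fold changes of the 10 enzyme genes (columns) in the 17 comparisons (rows) in a scale from blue (lower) to red (higher), where boxes mark an adjusted p of at most 0.05 from edgeR. The rows for TGFβ against CTRL are red for all genes, palest for Plod2 in iCre, and the boxes of the rows for iCre against LacZ fall most often on Loxl2, then on Lox, Plod2 and P4ha2.

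Lox, the founding lysyl oxidase, had the widest range of the 10 genes, with group means from 275 CPM in iCre TNFα to 9980 CPM in LacZ TGFβ, a ratio of 36.3. In LacZ CTRL the libraries of replicates 1 to 4 held 1183, 1508, 739 and 758 CPM. With TGFβ they held 9254, 14944, 7708 and 8014 CPM. All TGFβ libraries stood far above all CTRL libraries, with a log2 fold change of 3.28 (SE 0.31, adjusted p = 2.49e-05), or 9.69-fold. IL-1β libraries, at 5004, 2713, 2229 and 2983 CPM, also lay above CTRL without overlap, and the fold was 3.13 (log2 1.65, SE 0.30, adjusted p = 0.00389). With TNFα the libraries, at 1038, 924, 740 and 913 CPM, overlapped CTRL (log2 −0.21, adjusted p = 0.562). With bFGF the value was −0.71 (adjusted p = 0.163, with the block 0.0107), and each bFGF library lay below the CTRL library of its number.

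In iCre fibroblasts Lox without ligand was at 936, 875, 590 and 644 CPM. It rose with TGFβ to 5962, 12250, 6920 and 5393 CPM, 10.1-fold (log2 3.34, SE 0.29, adjusted p = 1.09e-05). After IL-1β the libraries held 1071, 812, 774 and 1271 CPM and overlapped CTRL (log2 0.39, adjusted p = 0.247, with the block 1.92e-05). Under TNFα Lox fell to 394, 126, 283 and 297 CPM, below every CTRL library, by 1.43 on the log2 scale (SE 0.31, adjusted p = 0.00667). Set directly against LacZ, iCre fibroblasts held 0.30 times the Lox of LacZ with IL-1β (log2 −1.74, SE 0.27, adjusted p = 0.0020) and 0.309 times with TNFα (log2 −1.70, SE 0.29, adjusted p = 0.00222), with the libraries apart in both. In CTRL, bFGF and TGFβ the log2 differences were −0.47, −0.40 and −0.42, none of which passed (adjusted p = 0.424, 0.626 and 0.462). With the block they had adjusted p-values of 0.00112, 0.0101 and 0.000935, the last of which became 0.187 with GC content corrected as well.

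Loxl2, a secreted lysyl oxidase that cross-links collagen IV and is raised in fibrotic tissue, lay lower in each iCre library than in the LacZ library of its number in all 5 conditions, as P4ha1 also did. Its CTRL libraries held 246, 237, 308 and 296 CPM under LacZ and 158, 136, 150 and 116 CPM under iCre, with no overlap. The log2 fold change was −0.97 (SE 0.12, adjusted p = 0.0335). It lost the call without replicate 1, 3 or 4 (adjusted p up to 0.474) and had an adjusted p of 2.75e-06 with the block. With bFGF the LacZ libraries held 258, 308, 312 and 313 CPM and the iCre libraries 169, 207, 145 and 129 CPM. They did not overlap either, and the difference of −0.87 missed the threshold in edgeR (adjusted p = 0.202) but not with the block (1.46e-06) or in DESeq2 (6.96e-05).

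TGFβ raised Loxl2 in both kinds of cells, by 3.79-fold to 1290, 733, 1001 and 1038 CPM in LacZ (log2 1.92, SE 0.18, adjusted p = 2.55e-05) and by 3.60-fold to 632, 394, 446 and 514 CPM in iCre fibroblasts (log2 1.85, SE 0.16, adjusted p = 9.92e-06). The fold was thus on a lower base in iCre, and the difference between viruses with TGFβ was −1.06 (SE 0.19, adjusted p = 0.00679, above the threshold without replicate 3 or 4, at up to 0.0871). IL-1β raised Loxl2 2.24-fold in LacZ, to 752, 438, 563 and 663 CPM (log2 1.16, SE 0.17, adjusted p = 0.00132). In iCre the IL-1β libraries, at 177, 178, 136 and 152 CPM, overlapped CTRL (log2 0.22, adjusted p = 0.279, with the block 0.0119, and 0.762 with GC content corrected too). The iCre level with IL-1β was therefore 0.263 times that of LacZ (log2 −1.93, SE 0.18, adjusted p = 0.000117). With TNFα the LacZ libraries held 310, 331, 340 and 342 CPM of Loxl2 and the iCre libraries 116, 158, 69.2 and 74.8 CPM, a log2 difference of −1.64 (SE 0.24, adjusted p = 0.000993). Within each virus TNFα libraries did not pass against CTRL (log2 0.28, adjusted p = 0.0820 in LacZ, with the block 0.00125, and log2 −0.39, adjusted p = 0.270 in iCre). The iCre value was −0.67 without replicate 2 (adjusted p = 0.0436) and −0.65 with the block and GC content corrected (0.0141). Exons of Loxl2 share 301 of their 5405 bases with an antisense gene, Gm27177, and reads from the shared bases cannot be assigned without a stated strand setting.

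**Figure D2:**
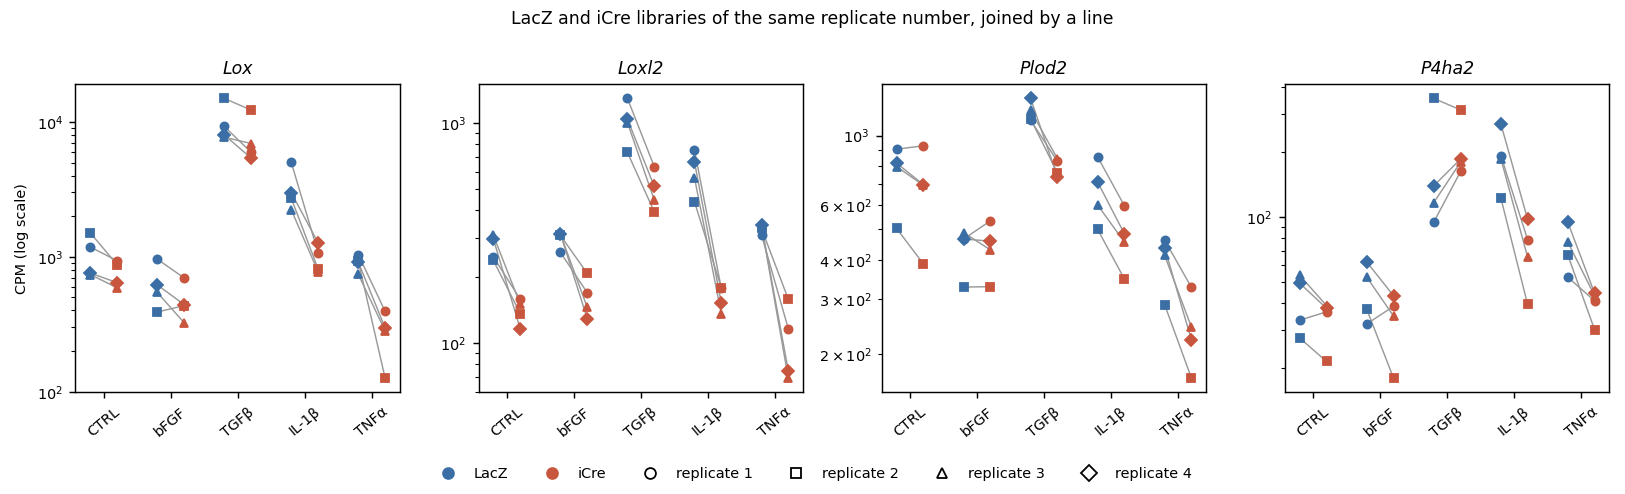
CPM (log axis) of Lox, Loxl2, Plod2 and P4ha2 in LacZ (blue) and iCre (red) libraries under each ligand, with a line joining libraries of the same replicate number. Every Loxl2 line slopes down, as do the Lox, Loxl2 and P4ha2 lines with IL-1β and TNFα, while 3 of the 4 P4ha2 lines with TGFβ slope up.

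Loxl1, which acts in the deposition of elastic fibres, moved with TGFβ and little else. Its LacZ libraries held 531, 587, 430 and 425 CPM in CTRL and 1352, 1130, 1127 and 1162 CPM with TGFβ, 2.45-fold (log2 1.29, SE 0.13, adjusted p = 4.05e-05). In iCre fibroblasts it rose 2.55-fold (log2 1.35, adjusted p = 0.000122), to between 1198 and 1374 CPM. With IL-1β it rose 1.35-fold in LacZ (log2 0.44, SE 0.13, adjusted p = 0.0420), a call that was lost without replicate 1, 3 or 4 (adjusted p up to 0.201). The value in iCre was 0.53 (adjusted p = 0.0930, with the block 3.71e-11). Between iCre and LacZ libraries Loxl1 differed by −0.14 to 0.24 on the log2 scale over the 5 conditions, and neither the test without the block nor that with it passed.

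Loxl3, known for its part in craniofacial and spinal development, rose with bFGF as well. In LacZ it went from 88.4, 115, 94.8 and 116 CPM in CTRL to 225, 208, 194 and 248 CPM with bFGF (log2 1.10, SE 0.12, adjusted p = 0.000972). In iCre it went from 103, 131, 115 and 131 CPM to 221, 173, 202 and 242 CPM (log2 0.81, SE 0.13, adjusted p = 0.0201, above the threshold without replicate 1, 3 or 4, at up to 0.197). Without the block no other enzyme was called for bFGF in both viruses, whereas with it Lox, Plod2, Plod3 and P4ha1 were as well. The interaction of bFGF with TAK1 deletion was −0.27 (adjusted p = 1.00). TGFβ raised it 5.39-fold in LacZ and 5.81-fold in iCre fibroblasts (log2 2.43 and 2.54, adjusted p = 1.49e-06 and 1.04e-06). IL-1β raised it by 1.13 on the log2 scale in LacZ (adjusted p = 0.000343) and by 0.64 in iCre fibroblasts (adjusted p = 0.0129, 1.55-fold, but 0.0905 with GC content corrected). With TNFα Loxl3 was at 104, 127, 126 and 150 CPM in LacZ, which overlapped CTRL (log2 0.29, adjusted p = 0.127, with the block 0.000759). In iCre it rose to 152, 195, 177 and 175 CPM (log2 0.57, SE 0.11, adjusted p = 0.00397), a call that just missed the threshold without replicate 3. The TNFα libraries of iCre thus lay above those of LacZ without overlap (log2 0.48, SE 0.12, adjusted p = 0.0132), the only one of the 6 calls for TNFα between viruses that was positive. With GC content corrected and the block this was 0.25 (adjusted p = 0.0693), and it missed the threshold without replicate 2 or 3 (up to 0.0990). With TGFβ the Loxl3 difference between viruses was 0.29 (adjusted p = 0.267, with the block 0.00913, and 0.438 with GC content corrected too), and in CTRL it was 0.20 (0.458, with the block 0.0255). Exons of Loxl3 share 535 bases with Htra2 on the opposite strand.

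Loxl4 had the lowest level per exon length of the 5 lysyl oxidases in LacZ CTRL, 10.4 ± 1.77 CPM per kb (SD, n = 4). TGFβ raised it from 44.9, 33.2, 47.9 and 49.9 CPM to 284, 115, 240 and 233 CPM in LacZ (log2 2.33, SE 0.26, adjusted p = 7.23e-05). In iCre it went from 47.9, 20.7, 52.7 and 48.1 CPM to 375, 133, 365 and 286 CPM (log2 2.79, SE 0.37, adjusted p = 0.000155). Replicate 2 was the lowest library in each of these 4 groups. The difference between viruses with TGFβ was 0.38 (adjusted p = 0.566, with the block 0.00327, and 0.540 with GC content corrected too). TNFα libraries of LacZ, at 68.2, 74.5, 74.2 and 73.5 CPM, all exceeded CTRL (log2 0.72, SE 0.12, adjusted p = 0.00273, but 0.108 with all 40 libraries in a single fit). In iCre the value with TNFα was 0.84 (adjusted p = 0.0525, with the block 0.000111, in DESeq2 0.0242). IL-1β left Loxl4 at 40.6, 31.2, 46.2 and 49.2 CPM in LacZ (log2 −0.07, adjusted p = 0.840).

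**Figure D3:**
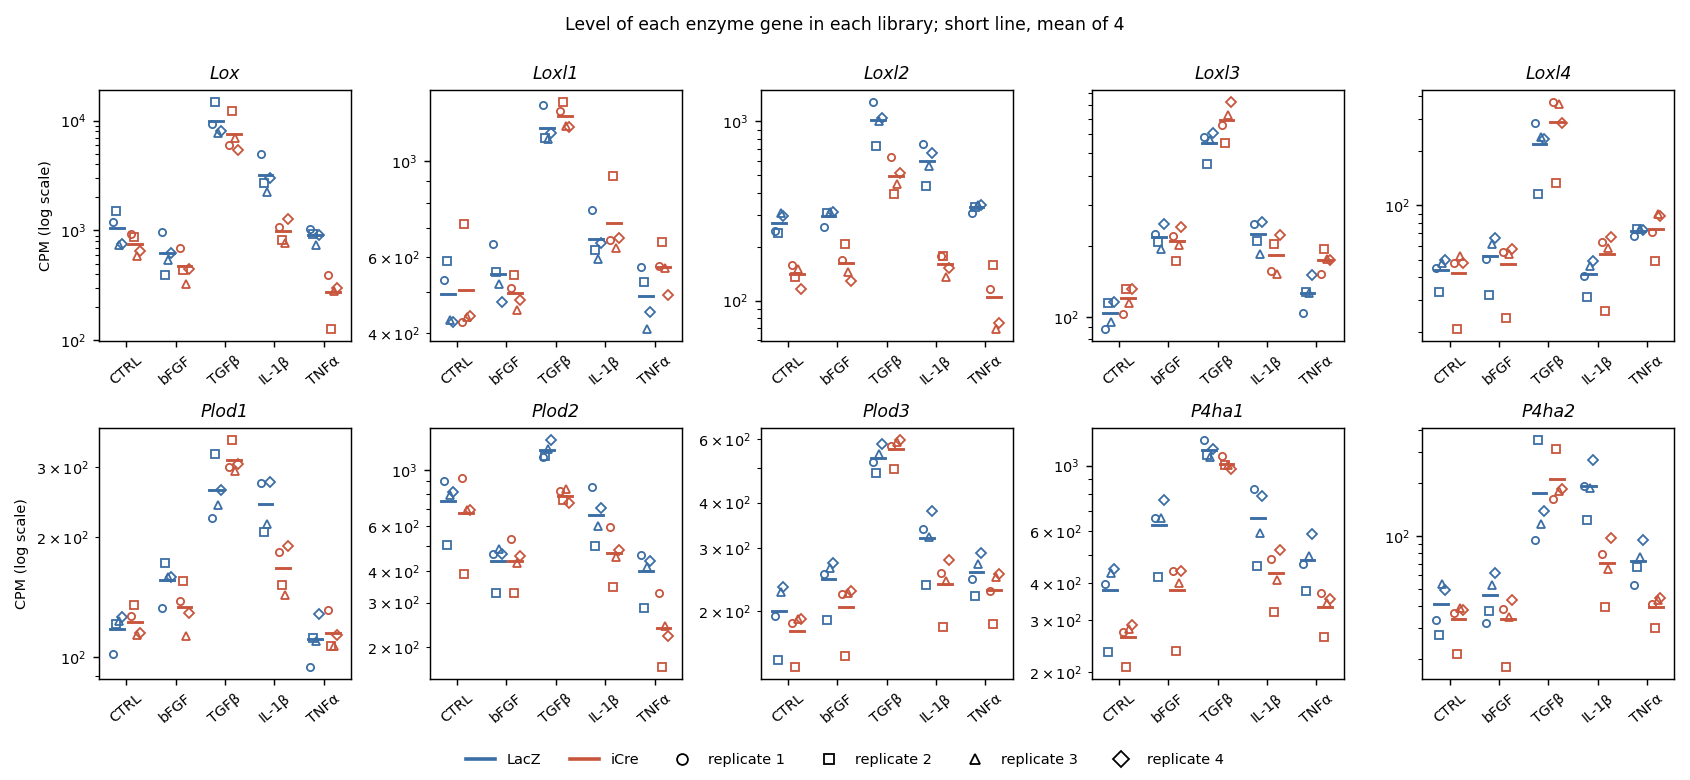
CPM (log axis) of each of the 10 enzyme genes in the 40 libraries, by ligand (x axis) and virus (blue LacZ, red iCre), with a symbol for each replicate number and a short line at the mean of 4. The TGFβ libraries lie above all others for 6 of the genes, and squares (replicate 2) often lie at the edge of their group.

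Plod2, the lysyl hydroxylase that modifies telopeptides and so fixes the kind of cross-link, was lowered by bFGF and TNFα in LacZ fibroblasts, where without the block no other enzyme was called lower (with it, bFGF also lowered Lox). Its LacZ CTRL libraries held 904, 504, 795 and 816 CPM. With bFGF they held 466, 327, 489 and 466 CPM and with TNFα 462, 287, 413 and 437 CPM. Both sets lay below every CTRL library, and Plod2 fell by 0.77 (SE 0.20, adjusted p = 0.0305) and by 0.92 on the log2 scale (SE 0.20, adjusted p = 0.0105). The call for bFGF was lost without replicate 1, 3 or 4 (adjusted p up to 0.165) and that for TNFα without replicate 3 or 4 (up to 0.0769). With the block both had lower adjusted p-values, 2.14e-06 and 3.26e-10. IL-1β libraries overlapped CTRL (log2 −0.17, adjusted p = 0.618).

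TGFβ raised Plod2 least of the 10 genes in LacZ, to 1119, 1130, 1204 and 1315 CPM (1.59-fold, log2 0.67, SE 0.18, adjusted p = 0.0123), and without replicate 3 or 4 the adjusted p went up to 0.0607. In iCre fibroblasts CTRL libraries held 927, 388, 693 and 696 CPM and TGFβ libraries 827, 759, 843 and 737 CPM. These overlapped (log2 0.25, adjusted p = 0.406). With TGFβ, iCre libraries all lay below LacZ libraries, at 0.650 times their level (log2 −0.62, SE 0.09, adjusted p = 0.00302). A correction for GC content cut that difference to −0.31, which passed with the block (adjusted p = 0.0194) and not without it (0.169). The interaction of TGFβ with TAK1 deletion was −0.46 for Plod2 (adjusted p = 0.526, with the block 0.256). With TNFα in iCre fibroblasts Plod2 fell to 326, 167, 243 and 221 CPM (log2 −1.46, SE 0.27, adjusted p = 0.00315), 0.608 times the LacZ level (log2 −0.72, SE 0.21, adjusted p = 0.0309, lost without replicate 3 or 4 at up to 0.166). With GC content corrected this was −0.49 (adjusted p = 0.145, with the block 0.00476). IL-1β against CTRL in iCre gave −0.50 for Plod2 (adjusted p = 0.218, with the block 2.18e-08), and with IL-1β the difference between viruses was −0.52 (adjusted p = 0.117, with the block 3.73e-05).

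Plod1, the lysyl hydroxylase of the helical part of collagen, rose with TGFβ from 102, 121, 123 and 126 CPM in LacZ CTRL to 223, 323, 241 and 262 CPM (log2 1.17, SE 0.12, adjusted p = 4.91e-05). IL-1β raised it almost as far, to 273, 206, 216 and 275 CPM (log2 1.05, SE 0.12, adjusted p = 0.000353). In iCre CTRL the libraries held 127, 135, 114 and 115 CPM. TGFβ brought them to 300, 351, 292 and 305 CPM (log2 1.36, SE 0.09, adjusted p = 2.79e-06), but IL-1β to 183, 152, 143 and 190 CPM (log2 0.46, SE 0.11, adjusted p = 0.0196), a call that was lost without replicate 1, 3 or 4 (up to 0.131) and with GC content corrected (0.176). The iCre libraries with IL-1β lay below those of LacZ, at 0.682 times their level (log2 −0.55, SE 0.14, adjusted p = 0.0205, lost without replicate 1, 3 or 4 at up to 0.0949). With TGFβ the difference was 0.22 (adjusted p = 0.334, with the block 0.0341, and 0.709 with GC content corrected too). The response to bFGF was 1.34-fold in LacZ (log2 0.42, adjusted p = 0.0337, and above the threshold with any replicate left out, at up to 0.192).

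Plod3, which also carries the glycosyltransferase activity that adds sugars to hydroxylysine, rose with TGFβ from 194, 147, 226 and 233 CPM to 517, 482, 544 and 581 CPM in LacZ (log2 1.42, SE 0.15, adjusted p = 5.61e-05). In iCre it rose from 186, 140, 191 and 190 CPM to 575, 495, 588 and 598 CPM (log2 1.69, SE 0.12, adjusted p = 3.85e-06). IL-1β raised it 1.6-fold in LacZ (log2 0.68, SE 0.18, adjusted p = 0.0239, lost without replicate 1, 3 or 4 at up to 0.110). Its value with IL-1β in iCre was 0.45 (adjusted p = 0.0704, with the block 3.53e-08). For iCre against LacZ the log2 differences lay between −0.43 (IL-1β) and 0.06 (TGFβ), and none passed without the block unless replicate 2 was left out (IL-1β, adjusted p = 0.0286) or GC content was corrected. With the block, bFGF (adjusted p = 0.0179) and IL-1β (0.000149) did. Correcting GC content without the block called Plod3 lower in iCre with IL-1β (−0.66, adjusted p = 0.0387) and TNFα (−0.45, 0.0380), and with the block it was lower in CTRL (0.0301), bFGF (0.00478), IL-1β (3.65e-06) and TNFα (0.00292). Exons of Plod3 share 529 bases with Znhit1, and those of Plod2 share 346 bases with Gm38391, both on the opposite strand.

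The prolyl 4-hydroxylase α subunits are shown with their promoters because both genes are known targets of hypoxia-inducible factor, whose binding core is ACGTG or GCGTG. The part of that factor in their levels was not tested. The windows hold 250 bases before and 50 after the transcription start, 300 in all, from RefSeq (GRCm38.p6, plus strand), at chr10:59323046-59323345 for P4ha1 and chr11:54100674-54100973 for P4ha2, whose RefSeq start lies inside the Ensembl gene. Capitals mark ACGTG or GCGTG on either strand, so that CACGT and CACGC are their matches on the other strand.
P4ha1: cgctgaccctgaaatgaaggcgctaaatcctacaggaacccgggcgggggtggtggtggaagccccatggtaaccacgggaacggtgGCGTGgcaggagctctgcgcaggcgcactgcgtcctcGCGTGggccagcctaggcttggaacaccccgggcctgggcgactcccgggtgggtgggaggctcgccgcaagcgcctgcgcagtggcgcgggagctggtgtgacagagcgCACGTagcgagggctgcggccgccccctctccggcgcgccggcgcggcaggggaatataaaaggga
P4ha2: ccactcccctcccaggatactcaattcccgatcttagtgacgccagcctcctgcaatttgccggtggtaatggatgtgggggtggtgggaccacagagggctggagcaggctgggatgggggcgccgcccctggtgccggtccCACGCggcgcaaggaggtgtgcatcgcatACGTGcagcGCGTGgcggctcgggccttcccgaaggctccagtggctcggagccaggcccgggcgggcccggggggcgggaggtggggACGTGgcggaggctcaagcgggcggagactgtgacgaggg

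P4ha1 held 1 ACGTG and 2 GCGTG, and P4ha2 held 2 of each. Of 32851 mouse promoter windows of this length, 19.6% held ACGTG, 32.4% held GCGTG and 43.8% held at least 1 of them (both windows shown were 70.3% G or C). A promoter was found for 5 of the 10 genes. Of the other 3, Plod3 held 1 ACGTG and 3 GCGTG, Plod1 2 GCGTG and Loxl4 1 GCGTG. The AP-1 letters TGANTCA were in none of the 5 windows and in 7.81% of all. A match describes the letters of these windows and not a bound site.

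P4ha1, the more abundant of these α subunits per exon length, rose with TGFβ in LacZ from 398, 235, 435 and 447 CPM to 1225, 1082, 1073 and 1139 CPM (log2 1.59, SE 0.20, adjusted p = 0.000136). In iCre it rose from 274, 208, 281 and 290 CPM to 1079, 1003, 1007 and 972 CPM, 3.91-fold (log2 1.97, SE 0.12, adjusted p = 1.71e-06). IL-1β raised it 1.77-fold in LacZ, to 833, 459, 590 and 788 CPM (log2 0.82, SE 0.24, adjusted p = 0.0367), and 1.67-fold in iCre, to 482, 321, 410 and 518 CPM (log2 0.74, SE 0.17, adjusted p = 0.0132). Both calls were lost without replicate 1, 3 or 4 (up to 0.141 and 0.0826). With bFGF the LacZ libraries held 667, 420, 664 and 764 CPM, each above the CTRL library of its number (log2 0.75, adjusted p = 0.0673, with the block 1.26e-06, in DESeq2 0.0244). Every iCre library lay below the LacZ library of its number in all 5 conditions. That difference passed with TNFα, where iCre held 0.701 times the LacZ level (log2 −0.51, SE 0.16, adjusted p = 0.0338, lost without replicate 1, 3 or 4 at up to 0.155 and with GC content corrected at 0.0637). In CTRL it was −0.54 (adjusted p = 0.273, with the block 0.000287), with bFGF −0.73 (0.378, with the block 3.48e-07) and with IL-1β −0.64 (0.0681, with the block 6.84e-06). With TGFβ it was −0.18 (0.260, with the block 0.0885).

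P4ha2, the second α subunit, was the enzyme that IL-1β raised most in LacZ fibroblasts. CTRL libraries held 33.4, 27.6, 53.8 and 49.5 CPM and IL-1β libraries 193, 123, 187 and 271 CPM, 4.74-fold (log2 2.24, SE 0.27, adjusted p = 0.000432). TGFβ libraries held 95.0, 355, 117 and 140 CPM, and replicate 2 made the spread of that group (log2 2.11, SE 0.41, adjusted p = 0.00217, at most 0.0114 with any replicate left out). Without replicate 2 the log2 fold change was 1.37. TNFα raised it to 52.8, 66.8, 76.7 and 94.7 CPM, which overlapped CTRL by its lowest library (log2 0.82, SE 0.24, adjusted p = 0.0329, lost without replicate 1, 3 or 4 at up to 0.105).

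In iCre fibroblasts P4ha2 was at 36.5, 21.5, 39.0 and 37.9 CPM in CTRL. With TGFβ it was at 163, 314, 180 and 186 CPM, 6.32-fold higher (log2 2.66, SE 0.25, adjusted p = 1.68e-05). IL-1β raised it to 78.8, 39.5, 65.4 and 97.9 CPM, 2.12-fold (log2 1.08, SE 0.27, adjusted p = 0.0223), and that call was lost without replicate 1, 3 or 4 (up to 0.113) and with GC content corrected (0.0665). The IL-1β libraries of iCre thus lay below all those of LacZ, at 0.360 times their level (log2 −1.47, SE 0.29, adjusted p = 0.00628, and 0.0583 without replicate 3). With TNFα iCre libraries held 41.0, 30.1, 43.3 and 44.4 CPM, below all those of LacZ (log2 −0.85, SE 0.18, adjusted p = 0.00609). With TGFβ the difference between viruses was 0.23 (adjusted p = 0.812), and 0.52 (0.0140) without replicate 2. With the block the adjusted p was 0.0187, and 0.260 when GC content was corrected too.

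Whether a ligand's effect differed between the viruses was tested as an interaction over 16 libraries. For IL-1β, Loxl2 (−0.96, SE 0.22, adjusted p = 0.0115) and Plod1 (−0.60, SE 0.17, adjusted p = 0.0377) responded less in iCre fibroblasts, where 4.95% of all genes tested had a lower and 2.76% a higher response. Both were lost without replicate 1, 3 or 4, and Plod1 also without replicate 2 (up to 0.120 and 0.239). Lox (−1.27, adjusted p = 0.0574) and P4ha2 (−1.17, adjusted p = 0.109) had larger estimates with larger errors, and passed with the block (0.00207 and 6.41e-05), as did Loxl3 (−0.50, adjusted p = 0.157 and 0.00768). The block thus called 5 of the 10, where it called 16.9% of all genes, and with GC content corrected too it also called Plod3 (0.00309). P4ha1, by contrast, had an interaction of −0.10 (SE 0.31, adjusted p = 0.931) with IL-1β, so that a difference in its response was not detectable.

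No enzyme passed the interaction with TNFα (all genes, 8.38% higher and 7.70% lower), although Lox (−1.24, SE 0.41, adjusted p = 0.0520) and Loxl2 (−0.69, adjusted p = 0.117) had an unadjusted p under 0.05 and DESeq2 called Lox (0.0133). The block called 4 (25.1% of all genes): Lox (0.0162), Plod2 (0.00328), P4ha2 (0.0364) and Loxl3 (0.0407), the last of these with an estimate above 0. With GC content corrected too, Plod2 (0.0563) and Loxl3 (0.690) were lost and Loxl2 (0.0371) was gained. For TGFβ no enzyme passed by edgeR with or without the block or by DESeq2, where 0.893% of all genes were higher and 3.62% lower without the block. An unadjusted p under 0.05 was found for 0 enzymes without the block and for 2 with it, and P4ha2 passed when replicate 2 was left out (0.84, adjusted p = 0.0337). The estimates for TGFβ lay between −0.46 (Plod2) and 0.52 (P4ha2), with standard errors from 0.15 to 0.51. For bFGF, 0% of genes passed in each direction. Without the block no enzyme had an unadjusted p under 0.05 (2 did with it), 765 genes of the 25210 did, and DESeq2 called 0 genes.

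Summed per exon length, the 5 lysyl oxidases were at 452 ± 93.8 CPM per kb in LacZ CTRL (SD, n = 4) and at 2810 ± 645 with TGFβ, where the lowest TGFβ library (2320) stood above the highest CTRL library (570). With IL-1β the sum was 1050 ± 303 in LacZ and 506 ± 58.5 CPM per kb in iCre fibroblasts, with no overlap, and with TNFα it was 443 ± 42.0 and 305 ± 18.3. The make-up changed along with the sum. Lox made up 47.4 ± 6.96% of the family's level per length in LacZ CTRL, 73.2 ± 7.11% with TGFβ and 63.5 ± 5.22% with IL-1β. In iCre fibroblasts its share was 42.4 ± 5.49% in CTRL, 68.0 ± 8.46% under TGFβ, 40.4 ± 6.98% under IL-1β and 18.8 ± 7.18% under TNFα. Loxl1 was the largest in iCre TNFα, at 56.6 ± 5.45%, and its mean share was also above that of Lox in LacZ bFGF (40.6 against 31.1%, with overlap), iCre bFGF (45.0 against 29.0%) and iCre IL-1β (43.2 against 40.4%, with overlap). Among the lysyl hydroxylases, Plod2 made up 69.0 ± 3.87% in LacZ CTRL and 50 ± 4.37% with TNFα, and in iCre 67.5 ± 6.50% and 39.2 ± 5.06%. P4ha2 was the smaller of the α subunits throughout, with its largest share, 16 ± 2.34%, in LacZ IL-1β and 9.46 ± 1.48% in iCre IL-1β.

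**Figure D4:**
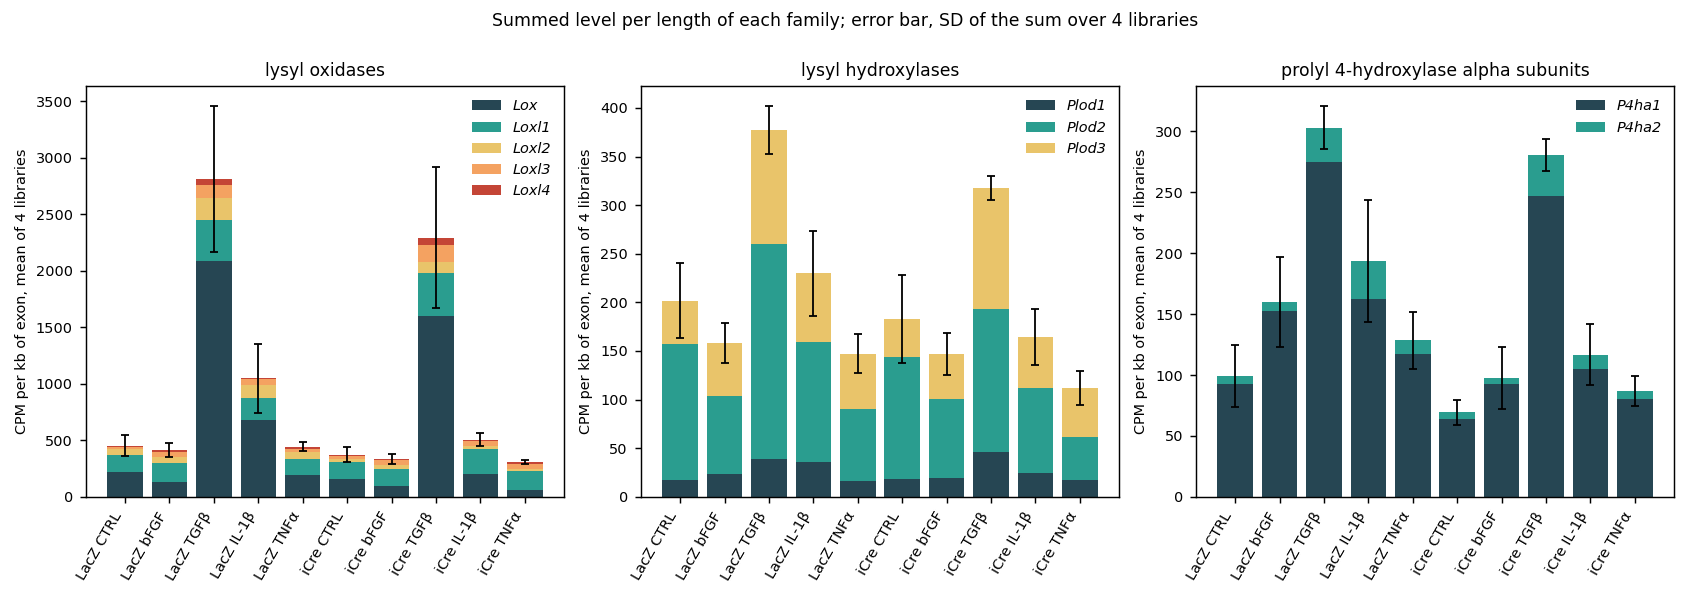
Summed level per exon length (CPM per kb, mean of 4 libraries; bars start at 0; error bars are the SD of the sum) of the lysyl oxidases, the lysyl hydroxylases and the prolyl 4-hydroxylase α subunits in the 10 groups, split by gene. The Lox segment makes most of the lysyl oxidase bar with TGFβ (73.2% in LacZ) and is small in iCre TNFα (18.8%), where Loxl1 takes 56.6%.

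Relative to the fibrillar collagen chains, also per length, the lysyl oxidases went from 126 ± 49.8 per 1000 units of collagen in LacZ CTRL to 361 ± 45.9 with TGFβ, with no overlap (at most 200 and at least 325). The lysyl hydroxylases were at 53.6 ± 5.13 and 49.3 ± 6.90, with overlap, and the α subunits went from 26.1 ± 4.96 to 39.4 ± 2.10, again without overlap. In iCre libraries the 3 mean ratios moved in the same directions as in LacZ, and whether the viruses differed in this was not tested. There the lysyl hydroxylases per unit of collagen went down from a mean of 80.1 in CTRL (69.4 to 97.2) to 42.3 with TGFβ (37.6 to 49.5), without overlap, while the lysyl oxidases (174 ± 67.6 and 302 ± 68.5) and the α subunits (31.3 ± 7.31 and 37.2 ± 3.25) overlapped. The summed lysyl hydroxylases themselves rose in iCre, from 183 ± 44.9 to 318 ± 12.3 CPM per kb, and the collagen chains rose from 2321 ± 722 to 7591 ± 884. In iCre TNFα, where the chains were lowest (1228 ± 408 CPM per kb, against 2859 ± 379 in LacZ TNFα), there were 263 ± 59.6 lysyl oxidase, 95.8 ± 24.2 lysyl hydroxylase and 75.2 ± 21.9 α subunit units per 1000 of collagen, against 157 ± 28.6, 51.6 ± 4.09 and 45.1 ± 7.37 in LacZ TNFα. The lysyl oxidases and the α subunits overlapped between the viruses there, and the lysyl hydroxylases did not. These ratios describe RNA levels and were given no test of their own.

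The substrates and helpers of these enzymes were taken from lists. Of 6 substrates, TGFβ raised 5 in LacZ (17.5% of all genes, median log2 1.83, all genes −0.17), led by Eln, which encodes elastin, from 199 ± 119 to 14598 ± 3562 CPM (log2 6.21, adjusted p = 6.21e-06), Col1a1 (2.15) and Col5a2 (1.92). IL-1β raised 1, Col1a1 (0.90, adjusted p = 0.0181, with 11.1% of all genes higher), and with the block 2 of the 6 were higher and 1 lower (33.5% of all genes called in either direction). TNFα lowered Col3a1 (−0.78, adjusted p = 0.0437) and Col5a1 (−0.44, adjusted p = 0.0298), with 10.4% of all genes lower, and with the block 3 of the 6 were lower (35.5% of all genes called in either direction). In iCre against LacZ, 3 of the 6 were lower with IL-1β (8.98% of all genes, median −0.71, all genes 0.04) and 5 with TNFα (12.6% of all genes, median −0.83, all genes 0), Col3a1 by 1.26 and 1.77 on the log2 scale. The medians were similar in CTRL (−0.68, all genes −0.03) and bFGF (−0.53, all genes 0.0045), where 0 of the 6 passed, as with TGFβ (0.06). With the block all 6 were lower in CTRL, 5 were so under each of bFGF, IL-1β and TNFα, and under TGFβ 1 was lower and 1 higher. That fit called in either direction 14.5% of all genes in CTRL, 13.9% for bFGF, 20.8% for TGFβ, 29.5% for IL-1β and 32.2% for TNFα.

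Among 9 hydroxylation partners, TGFβ raised 5 in LacZ (17.5% of all genes), among them P3h1, a prolyl 3-hydroxylase (from 103 ± 6.24 to 400 ± 41.1 CPM, log2 1.98, adjusted p = 1.46e-06), and P4hb, the β subunit that both α subunits need (log2 1.28, adjusted p = 1.48e-05). It lowered Colgalt2, a galactosyltransferase of hydroxylysine that was low throughout (1.58 ± 0.412 to 0.130 ± 0.0565 CPM, log2 −3.57). IL-1β raised 4 (11.1% of all genes) and lowered Colgalt2. In iCre fibroblasts TGFβ raised 7 of the 9 (18.6% of all genes), including P4ha3, the third α subunit (34.7 ± 18.0 to 146 ± 32.6 CPM, log2 2.09, adjusted p = 0.00281). Between viruses 1 partner passed without the block, P3h4 with TNFα (log2 0.54, adjusted p = 0.00745, with 14.8% of all genes higher). The block called 5 of the 9 lower in iCre CTRL (14.5% of all genes in either direction), 3 under bFGF (13.9%) and 4 under IL-1β (29.5%), besides 1 lower and 1 higher under TGFβ (20.8%) and 1 higher under TNFα (32.2%). Of 6 chaperones and export factors, TGFβ raised 5 in each virus (17.5% and 18.6% of all genes), with Fkbp10, a partner of PLOD2 in telopeptide hydroxylation, at 1.78 in LacZ and 2.06 in iCre (adjusted p = 5.64e-06 and 8.99e-07) and Serpinh1, the collagen chaperone HSP47, at 1.61 and 2.10. IL-1β raised 3 in each virus (11.1% and 9.38% of all genes), and 6 in each with the block (33.5% and 33.8% called in either direction). Tmem38b, an endoplasmic reticulum cation channel, was lower in iCre with IL-1β (−0.81, adjusted p = 0.0107) and TNFα (−0.80, adjusted p = 0.00443), whereas Mia3, which acts in the export of procollagen, was higher with TNFα (0.31, adjusted p = 0.0413). The block called 3 of the 6 lower in CTRL (14.5% of all genes), 3 under bFGF (13.9%) and 4 under IL-1β (29.5%), besides 1 lower and 1 higher under TGFβ (20.8%) and 2 lower and 2 higher under TNFα (32.2%).

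Procollagen peptidases and their enhancers, 8 in all, had 2 members raised by TGFβ in LacZ (median log2 −0.24, all genes −0.17, with 17.5% of all genes higher). Against CTRL in LacZ, TGFβ brought Tll1, a tolloid-like proteinase that also activates LOX, to a log2 fold change of 2.72 (adjusted p = 4.44e-06), from 47.7 ± 12.3 to 311 ± 10.5 CPM, and Bmp1, which cleaves the propeptide of LOX and of procollagen, to one of 0.35 (adjusted p = 0.0313). Between viruses, Adamts3 was lower in iCre with IL-1β (−1.41, adjusted p = 0.00434), and with TNFα 2 were lower, among them Adamts2 (−1.05, adjusted p = 0.0343), and 2 higher, Tll1 (1.62, adjusted p = 0.00745) and Tll2 (0.032 ± 0.0232 and 1.34 ± 1.34 CPM), where 12.6% of all genes were lower and 14.8% higher. In the blocked fit this list had 4 lower and 2 higher in CTRL (14.5% of all genes), 3 and 3 under bFGF (13.9%), 2 and 0 under TGFβ (20.8%), 6 and 1 under IL-1β (29.5%) and 3 and 2 under TNFα (32.2%). Of 7 partners of the lysyl oxidases and other cross-linkers, TGFβ raised 4 in LacZ (17.5% of all genes), with Postn (2.12, adjusted p = 6.50e-05), Fn1 (1.11) and Fbln5 (0.92) leading. With IL-1β in LacZ 0 of the 7 were called without the block, and 1 was higher and 3 were lower with it (33.5% of all genes called in either direction). Postn, a matricellular protein that brings BMP1 to LOX, was lower in iCre with TGFβ (3079 ± 409 against 1535 ± 216 CPM, log2 −1.04, adjusted p = 0.00126). Tgm2, a transglutaminase that makes cross-links of another kind, was lower in iCre with TNFα (221 ± 94.5 against 21.8 ± 7.23 CPM, log2 −3.32, adjusted p = 0.000181), as was Atp7a, the pump that supplies copper to lysyl oxidases (−0.66, adjusted p = 0.00317). The block called 5 of these 7 lower in iCre under TNFα (32.2% of all genes), 5 in CTRL (14.5%), 4 under bFGF (13.9%) and 4 under IL-1β (29.5%), besides 1 lower and 1 higher under TGFβ (20.8%).

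The 9 targets of hypoxia-inducible factor included 8 that rose under bFGF in LacZ, 7 under TGFβ, 8 under IL-1β and 6 under TNFα, where 7.00%, 17.5%, 11.1% and 10.9% of all genes rose. Their medians were 1.02, 1.72, 1.63 and 0.63 on the log2 scale. In iCre fibroblasts 1 rose under bFGF (7 with the block, which called 16.7% of all genes in either direction), 8 under TGFβ, 8 under IL-1β and 6 under TNFα, where 1.79%, 18.6%, 9.38% and 14.7% of all genes rose. Vegfa, the vascular growth factor, was in LacZ at 80.8 ± 11.4 CPM in CTRL, 545 ± 108 with TGFβ (log2 2.77, adjusted p = 1.71e-06) and 279 ± 45.0 with IL-1β (log2 1.80, adjusted p = 2.81e-05). With bFGF in LacZ, Ldha, which makes lactate, rose by 1.27 (adjusted p = 0.000370) while P4ha1 and P4ha2 had values of 0.75 and 0.18 that were not called without the block (with it, P4ha1 was, at 1.26e-06). Between viruses the list went both ways. With IL-1β, Bnip3, Egln3 and Pdk1 were lower in iCre (−1.11, −1.08 and −0.80), and with TNFα Ankrd37 (2.0) and Slc2a1 (0.97) were among 3 that were higher and Pdk1 (−0.62) the 1 that was lower, where 14.8% of all genes were higher and 12.6% lower (7.14% and 8.98% with IL-1β). Under the block IL-1β had 6 lower and 1 higher (29.5% of all genes in either direction), TNFα 6 higher and 2 lower (32.2%), bFGF 4 lower (13.9%), TGFβ 3 higher (20.8%) and CTRL 1 higher (14.5%).

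Levels of the markers of fibroblasts and other cells are given for some of these contrasts, with no test. The summed fibroblast markers, which include Col1a1, Col1a2 and Col3a1, were lower in iCre without overlap under IL-1β and TNFα. With IL-1β they lay between 36390 and 69042 CPM in LacZ and between 22784 and 35309 CPM in iCre. With TNFα the ranges were 25473 to 34023 CPM and 15260 to 23084 CPM. In CTRL, bFGF and TGFβ the ranges of the viruses overlapped. The summed pericyte markers lay between 661 and 1167 CPM in LacZ TGFβ libraries and between 103 and 554 CPM in LacZ CTRL, without overlap, and between 745 and 1920 CPM in iCre TGFβ against 285 to 894 CPM in iCre CTRL, with overlap. With TNFα they lay between 71.9 and 368 CPM in LacZ and between 302 and 1154 CPM in iCre, with overlap. Leukocyte markers lay between 46.9 and 156 CPM in LacZ IL-1β and between 33.5 and 108 CPM in iCre IL-1β libraries, which overlapped as well. The 2 cardiomyocyte markers tested, Tnnt2 and Actc1, summed to between 14.6 and 110 CPM in LacZ CTRL, to between 0.326 and 1.64 CPM in LacZ IL-1β and to between 1.93 and 15.8 CPM in iCre IL-1β, the last 2 of which did not overlap. In LacZ TGFβ (2.82 to 14.3 CPM) and LacZ TNFα (0.874 to 6.65 CPM) they lay below every LacZ CTRL library, whereas LacZ bFGF (1.01 to 29.9 CPM) overlapped CTRL. In iCre, TGFβ (3.11 to 12.7 CPM) and CTRL (6.43 to 43.6 CPM) overlapped. The part of these cells in the values of the enzymes was not tested, and in bulk RNA fewer cells of a type and less RNA per cell cannot be told apart.

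Across the 10 group means, all pairs of the 10 enzymes had a positive Pearson r of log2 CPM, from 0.429 (Loxl4 and Plod2) to 0.948 (Plod3 and P4ha1), a description over groups that share libraries of the same replicate numbers and the 2 TGFβ groups at one end. Of the 7 lowest correlations, 6 involved Plod2. Among 9355 protein-coding genes of at least 10 CPM, those most like Lox over the 10 means were Vhl (r = 0.987), Col1a1 (0.986) and Col1a2 (0.981). Those most like Plod2 were Fibin (0.967), Prorsd1 (0.965) and Tdrd3 (0.964), and those most like P4ha1 were Pdia3 (0.987), Dnajc25 (0.985) and Bgn (0.981). In the order of group means, the 2 TGFβ groups came first and stood apart from the next group for Lox, Loxl1, Loxl3, Loxl4, Plod3 and P4ha1. For Loxl2 and P4ha2 the LacZ IL-1β group came between them, and it overlapped both. For Plod1 LacZ IL-1β came next and overlapped LacZ TGFβ, and for Plod2 iCre TGFβ overlapped LacZ CTRL. At the other end iCre TNFα had the lowest mean for Lox, Loxl2 and Plod2, and for each of them it overlapped the group with the next lowest mean.

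On GRCm38 (GENCODE M21), Lox is on chromosome 18 from 52516067 to 52529867, Loxl1 on chromosome 9 from 58287738 to 58313186, Loxl2 on chromosome 14 from 69609068 to 69695834, Loxl3 on chromosome 6 from 83034173 to 83052562 and Loxl4 on chromosome 19 from 42593982 to 42612813. Plod1 is on chromosome 4 from 147909753 to 147936767, Plod2 on chromosome 9 from 92542223 to 92608428 and Plod3 on chromosome 5 from 136987019 to 136996648. P4ha1 lies on chromosome 10 from 59323296 to 59373304 and P4ha2 on chromosome 11 from 54100095 to 54131665. Counts covered all exons of each gene together, so that isoforms were not told apart.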

How the data were processed

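RNA-seq was analysed from 40 libraries of mouse cardiac fibroblasts, in 10 groups of virus by ligand with 4 replicates each, grouped by their labels. The authors deposited unnormalized whole-number counts of single-end reads for each Ensembl gene (FastQC 0.10.1, STAR 2.6 on mm10 and HTSeq 0.10.0, per the submitters' processing notes). How strand was treated in counting and which annotation release was used are not given in the sources used here, and the labels and the methods name different library kits. No molecular identifiers were used, so the errors given by counting alone are too small.

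Genes with at least 10 counts over 40 libraries (25210) were scaled with TMM and tested with edgeR 4.0.16 (quasi-likelihood F-test, R 4.3.3), with only the libraries compared in a fit, in 13 pairs of groups and 4 interactions. Benjamini-Hochberg adjustment ran over all genes tested, with a threshold of 0.05. The alternatives were DESeq2 1.42.0, RLE scaling, other filters, fits without 1 replicate number or with that number as a block, a GC correction (24970 genes), all libraries in 1 fit and protein-coding genes. Replicate numbers are shared between groups in the labels, which do not say what a number stands for. Deviations from the group means correlated between libraries of the same number in each of 52 pairs (r from 0.349 to 0.876 over 10774 genes), so the numbers were taken to pair the samples. No library pair within a group agreed within sampling noise (chi-square per degree of freedom of at least 13.2). The study calls the replicates biological, and p-values measure the spread between these samples. On simulated data with 200 changed genes among 25210, TGFβ against CTRL in LacZ gave 154 of them with 3 false calls (175 with 12 under the block), and the TGFβ interaction gave 112 with 1 false call (126 with 3 under the block). The simulation used the same dispersion for all genes and had an effect of the replicate number built in. Fewer genes were changed in it than were called in the real data, so its rates are not those of the real tests.

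The enzymes, the lists and the tests were chosen with earlier results of these data known. All 10 enzymes were to be named in each comparison, and the heat map of log2 fold changes holds each of these values, of which the text gives a part. Of the lists, at most the 3 genes with the largest log2 fold change among those called are named, and for likeness the 3 protein-coding genes of at least 10 CPM with the highest r to the family member of highest mean CPM. Python 3.11.15 with pandas 2.3.3, numpy 2.4.6 and matplotlib were used for tables and plots. Promoters came from RefSeq.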

Additional observations from a re-analysis of the deposited data

Results flagged for a closer look

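A single library lay far from the other 3 of its group in 12 of the 100 combinations of gene and group, by the gap to the nearest library relative to the range (Dixon's ratio), where chance gives about 1 in 20. Replicate 2 was that library in 9 of the 12. For Loxl1 it was the highest, at 716 CPM in iCre CTRL and 926 CPM in iCre IL-1β. For Loxl4 it was the lowest, at 20.7 CPM in iCre CTRL and 24.0 CPM in iCre bFGF, and for Plod3 at 140 CPM and 150 CPM in the same groups. Plod2 was lowest there in LacZ bFGF (327 CPM). P4ha2 was lowest in iCre CTRL (21.5 CPM) and highest in iCre TGFβ (314 CPM). Replicate 1 was apart for Loxl1 in LacZ TGFβ (1352 CPM, the highest), Loxl2 in LacZ bFGF (258 CPM, the lowest) and Loxl4 in LacZ TNFα (68.2 CPM, the lowest). What sets these libraries apart was not tested.

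The response to IL-1β differed between the viruses for Loxl2 (interaction −0.959 on the log2 scale) and Plod1 (−0.599), by the edgeR interaction test over 16 libraries. Of all genes, 4.95% had a lower and 2.76% a higher response. Both calls were lost without replicate 1, 3 or 4. The block called 5 enzymes, adding Lox, Loxl3 and P4ha2 (16.9% of all genes in either direction).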

How the results depend on the processing

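Of the 170 log2 fold changes of the enzymes, no called value changed sign under any alternative run. With the replicate block, 46 that had missed the threshold passed it and 0 called ones were lost. The blocked counts of enzymes called were 6, 10, 8 and 7 for bFGF, TGFβ, IL-1β and TNFα in LacZ, 5, 9, 10 and 7 in iCre, 5, 5, 7, 8 and 6 for iCre against LacZ in CTRL, bFGF, TGFβ, IL-1β and TNFα, and 0, 0, 5 and 4 for the interactions with bFGF, TGFβ, IL-1β and TNFα. In the same order, that fit called 27.3%, 42.0%, 33.5% and 35.5% of all genes in LacZ and 16.7%, 41.5%, 33.8% and 36.1% in iCre. It called 14.5%, 13.9%, 20.8%, 29.5% and 32.2% between viruses and 0%, 8.04%, 16.9% and 25.1% for the interactions. Some counts of the gene lists and of all genes also moved by more than 1.5 times. With the block and the GC correction together the same counts were 8, 10, 8 and 7, then 5, 10, 8 and 8, then 6, 5, 2, 8 and 6, then 0, 0, 6 and 3. The GC correction alone gave 1 for IL-1β in iCre (4 without it) and 1 for iCre against LacZ with TGFβ (2 without it). It called 9.64% of all genes in the first (16.3% without it) and 1.29% in the second (8.37% without it). All 40 libraries in 1 fit gave 1 for TNFα in LacZ (21.2% of all genes), 1 for iCre against LacZ with bFGF (1.80%) and 1 with TGFβ (14.2%). DESeq2 gave 5 for TNFα in iCre (32.7% of all genes), 1 for iCre against LacZ with bFGF (1.93%), 4 for the IL-1β interaction (11.7%) and 1 for the TNFα interaction (20.5%). For the TNFα interaction RLE scaling (15.6%), filterByExpr (28.8%) and protein-coding genes alone (25.2%) each gave 1 as well. Leaving out 1 replicate number gave 1 to 3 enzymes for bFGF, 9 to 10 for TGFβ, 5 to 8 for IL-1β and 1 to 4 for TNFα in LacZ. In iCre it gave 0 to 4, 9 to 9, 1 to 8 and 2 to 8. For iCre against LacZ it gave 0 to 2 in CTRL, 0 to 2 with bFGF, 1 to 4 with TGFβ, 2 to 7 with IL-1β and 3 to 5 with TNFα, and for the interactions 0 to 0 with bFGF, 0 to 1 with TGFβ, 0 to 2 with IL-1β and 0 to 2 with TNFα. The highest of these counts came without replicate 2 in most comparisons, and fewer samples enter each such fit. Scaling to the raw library size moved 14 of the 100 group means by more than 1 SD. With 4 libraries a group, the spread between replicates limits what the unpaired fit can detect.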
